A study of Mus musculus with 3 samples.

Results

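The genes described here are 36 mouse genes of the autophagy machinery and its cargo receptors, taken by their symbol in the GENCODE M21 annotation from a list of known members. All 36 were found among the 55536 genes of the gene tables. They fall into 6 role groups: 5 genes of the initiation kinase complex, 6 of the class III lipid kinase complexes, 6 that supply membrane or transfer and bind lipid, 5 ATG8 proteins, 10 conjugation and processing enzymes, and 4 cargo receptors.

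Macrophages grown from C57BL/6J bone marrow had received lipid A, the toll-like receptor 4 agonist of bacterial lipopolysaccharide, at 100 ng/ml for 120 min, and RNA was taken from their cytosol. Ribosomal RNA was depleted from 1 µg of total RNA, and fragments of 250 to 400 bp were sequenced. The 3 libraries are biological replicates 1, 2 and 3 of 1 group, per their labels. No untreated cells and no nuclear RNA were analysed here, so levels and their spread are described, and no response to lipid A can be read from them. All 3 libraries carry the same donor identifier and the labels do not say that they came from separate animals, so p-values measure only the spread between these libraries, which may be technical.

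Autophagy encloses cytoplasm, organelles or microbes in a double membrane that closes into an autophagosome and fuses with lysosomes. The ULK kinase complex starts the process, the class III phosphatidylinositol 3-kinase marks the membrane with its lipid, and ATG9A vesicles and ATG2 proteins supply membrane. A pair of ubiquitin-like conjugation systems then attaches ATG8 proteins to phosphatidylethanolamine on the membrane, where cargo receptors bind them. In macrophages parts of this machinery also act in the capture of intracellular bacteria, in the attachment of LC3 to phagosomes and in limiting inflammasome signalling.

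The attachment of ATG8 proteins to lipid needs a glycine that the ATG4 proteases expose, and the coding sequences of the 5 ATG8 genes end around that residue. The last 48 coding bases of the highest coding transcript of each are given from the GENCODE M21 transcripts, with the codon of this glycine in capitals.
Map1lc3a: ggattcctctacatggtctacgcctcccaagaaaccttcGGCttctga
Map1lc3b: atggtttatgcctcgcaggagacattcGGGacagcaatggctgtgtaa
Gabarap: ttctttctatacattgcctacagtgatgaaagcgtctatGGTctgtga
Gabarapl1: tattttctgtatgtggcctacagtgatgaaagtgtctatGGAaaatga
Gabarapl2: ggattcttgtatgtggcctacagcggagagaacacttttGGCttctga

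In Map1lc3b, 5 codons stood between the glycine and the stop codon, and in each of the other 4 genes 1 codon did. Coding identity between the 5 genes ran from 50.6% for Map1lc3b and Gabarapl1 to 74.9% for Gabarap and Gabarapl1. The longest run of bases shared by any pair of these transcripts was 17, so fragments of the sequenced size differ between the 5 genes.

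Library depth was 31152786 expected counts in replicate 1, 114031592 in replicate 2 and 59693298 in replicate 3, so replicate 1 was the shallowest. Levels are in TPM, a count scaled by transcript length and library total, which allows genes to be compared with each other. The nuclear-encoded protein-coding genes held 22.2% ± 1.21 (SD, n = 3) of all TPM, so TPM values were also rescaled to the sum of these genes. All 8 macrophage markers looked at were detected, at a median of 183 TPM. Of 33 markers of other cell types 3 were detected: Cd4 at 18.2 TPM, S100a9 at 13.5 and S100a8 at 8.32. The summed level of these 33 genes ran from 39.4 to 44.6 TPM over the libraries. The T cell markers Cd3e, Cd3g, Cd8a and Trac lay at or under 0.03 TPM in every library, the neutrophil marker Ly6g was at 0 in all of them, and the part of other cells in the member levels was not tested. In these bulk samples, fewer cells of a type and less RNA per cell cannot be told apart.

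All 36 autophagy genes were detected, meaning a TPM of at least 1 in every library, where 37.6% of the 22015 nuclear-encoded protein-coding genes were. The median member stood at 4.82 TPM, against 6.84 for the 8281 detected protein-coding genes. Levels ran from 1.52 TPM for Atg14 to 454 for Sqstm1. In every library 9 of 36 members reached 10 TPM or more, as did 2940 of the 8281 detected protein-coding genes. Most of the summed level lay in 2 genes: Sqstm1 held 50.6% ± 3.85 (SD, n = 3) of the summed TPM of the 36 genes and Gabarap 21.7% ± 1.04. By role, the median was 22.7 TPM for the ATG8 proteins and 13.5 for the receptors, against 4.79 for the initiation complex, 4.28 for the lipid kinase complexes, 3.42 for the conjugation enzymes and 2.74 for the membrane and lipid group.

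**Figure D1:**
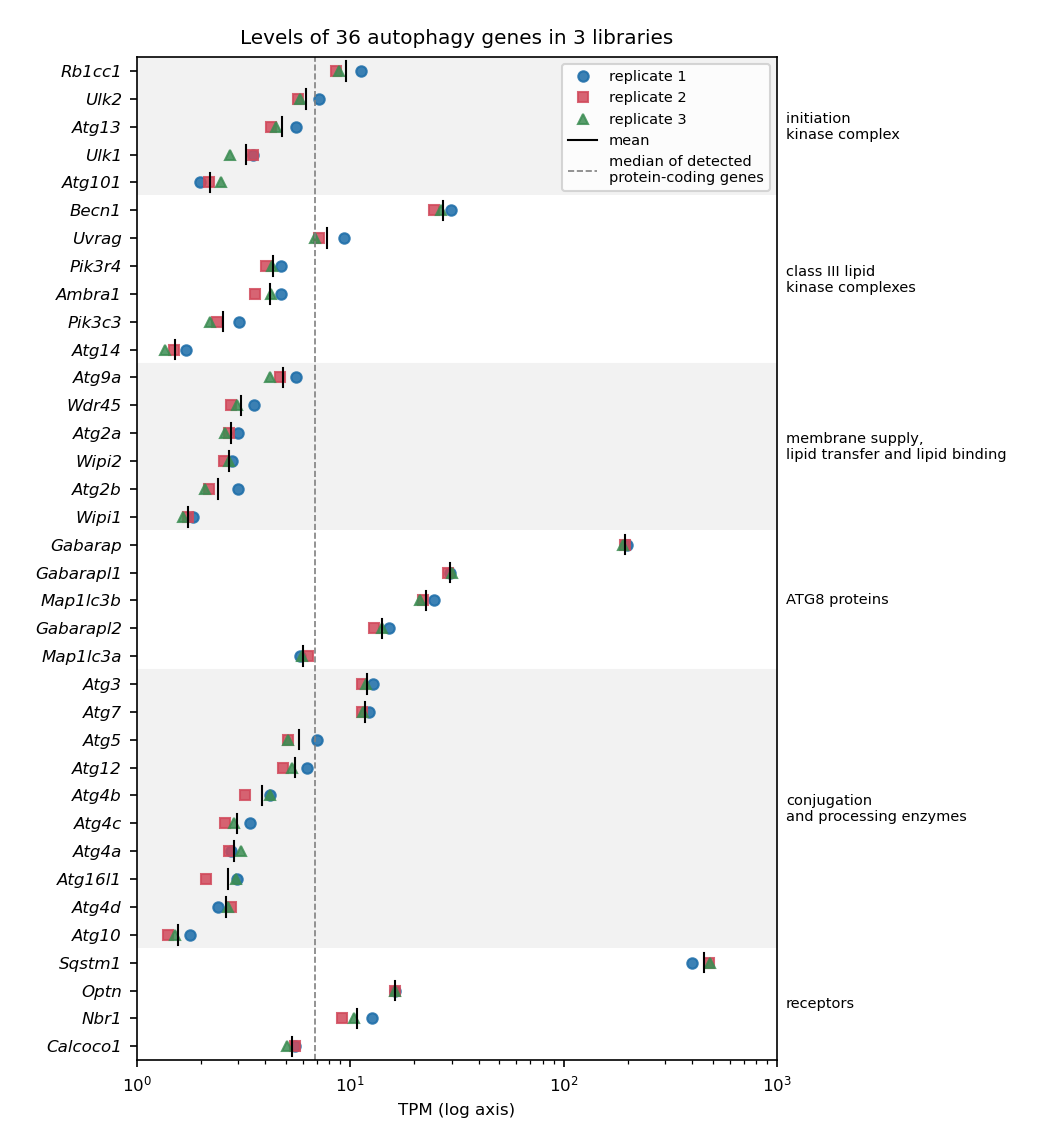
TPM of each of the 36 genes (log axis) in replicates 1, 2 and 3, grouped by role and ordered by mean within a group; black ticks are means and the dashed line is the median of the 8281 detected protein-coding genes. Sqstm1 and Gabarap lie far to the right of all other members, and every point is above 1 TPM.

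Among the 4 cargo receptors, Sqstm1, which encodes p62 and links ubiquitinated cargo to ATG8 proteins, stood at 399 TPM in replicate 1, 478 in replicate 2 and 483 in replicate 3 (454 ± 47.1, SD, n = 3). Replicates 2 and 3 lay close together and replicate 1 below both. Its mean ranked 49 among the 8281 detected protein-coding genes. Optn, which encodes the ubiquitin-binding receptor optineurin, was at 16.2, 16.3 and 16.3 TPM (16.3 ± 0.070), the narrowest spread of any member in TPM, whereas its libraries differed by a ratio of 1.21 on TMM-scaled counts. Nbr1, a ubiquitin-binding partner of p62, was at 12.7, 9.21 and 10.4 TPM in replicates 1, 2 and 3. For Nbr1 replicate 1 was the highest library, the reverse of Sqstm1. Calcoco1, a receptor for endoplasmic reticulum and Golgi membranes, was at 5.51, 5.50 and 5.07 TPM, with replicate 3 lowest by a small margin. Within libraries Sqstm1 exceeded Optn by a log2 ratio of 4.79 ± 0.15 (SD, n = 3), or 27.6-fold, and Nbr1 by 5.39 ± 0.38, or 41.9-fold. Both ratios were positive in 3 of 3 libraries.

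The same direct comparison was made for 16 pairs of paralogs and partners, as the log2 ratio of TPM + 0.1 within each library. With 3 libraries the exact two-sided sign-flip permutation test cannot go below 0.25. It gave p = 0.25 for 15 pairs, adjusted over the 16 to 0.267 (Benjamini-Hochberg), and an exact p = 0.5 for Atg12 over Atg5. No pair could therefore pass a threshold of 0.05, and the ratios are given with their spread.

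The ATG8 group was led by Gabarap, a member of the GABARAP branch, at 197 TPM in replicate 1, 194 in replicate 2 and 190 in replicate 3 (194 ± 3.58, SD, n = 3). The 3 libraries lay within a ratio of 1.04 in TPM and 1.14 on TMM-scaled counts. Gabarapl1, its closest paralog, was at 29.5, 28.9 and 30.1 TPM, and here too the libraries were nearly level in TPM. On TMM-scaled counts the Gabarapl1 libraries differed by a ratio of 1.16. The dispersion test described below called both Gabarap and Gabarapl1. Map1lc3b, which encodes LC3B, the protein most used to follow autophagosomes, was at 24.7, 22.0 and 21.4 TPM. Gabarapl2 was at 15.3, 13.0 and 14.1 TPM. In both of these replicate 1 was highest. Map1lc3a, the other LC3 gene, was lowest at 5.84, 6.38 and 5.94 TPM. In the gene tables the 5 genes did not overlap in any library, so their order was the same in all 3.

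Gabarap held 72.8% ± 0.494 (SD, n = 3) of the TPM of the 5 ATG8 genes, Gabarapl1 11.1% ± 0.366, Map1lc3b 8.52% ± 0.476, Gabarapl2 5.30% ± 0.346 and Map1lc3a 2.28% ± 0.138. In the authors' second quantification, made without alignment, the mean shares were 66.2%, 12.5%, 12.2%, 6.71% and 2.34% in the same order. Gabarapl1 and Map1lc3b were closer to each other there than in the gene tables. In replicate 2 Map1lc3b was the higher, at 12.7% against 12.1%, whereas Gabarapl1 was higher in replicates 1 and 3. The log2 ratio within libraries was 2.71 ± 0.05 (SD, n = 3) for Gabarap over Gabarapl1, 3.09 ± 0.09 for Gabarap over Map1lc3b, 3.77 ± 0.10 for Gabarap over Gabarapl2 and 1.89 ± 0.15 for Map1lc3b over Map1lc3a. Map1lc3b spans chr8:121590361-121598760 on mm10, and Gm20388, an annotated gene on the same strand that covers it, had 7.65 TPM. No exonic base of Map1lc3b-201, its highest transcript, lies in an exon of Gm20388. Processed pseudogenes with at least 200 bases at 95% identity exist for Map1lc3b and Gabarapl2, and each of those found lay at or under 0.507 TPM.

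**Figure D2:**
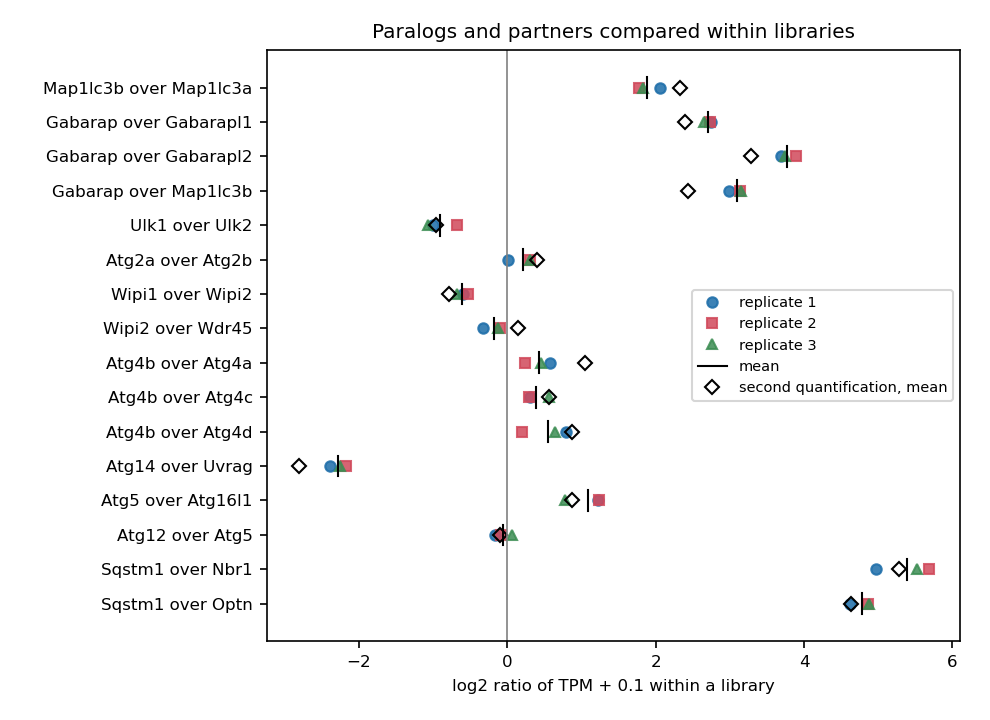
log2 ratio of TPM + 0.1 within each library for 16 pairs; coloured symbols are replicates 1, 2 and 3, black ticks their means and open diamonds the mean in the second quantification. The Sqstm1 and Gabarap pairs lie furthest from 0, and Wipi2 over Wdr45 is the pair whose mean changes sign in the second quantification.

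Among the 10 conjugation and processing enzymes Atg3 and Atg7 were highest. Atg3, the E2-like enzyme that transfers ATG8 proteins to lipid, was at 12.9, 11.4 and 11.9 TPM in replicates 1, 2 and 3. Atg7, the E1-like enzyme of both conjugation systems, was at 12.3, 11.4 and 11.5 TPM. These 2 had nearly equal levels, with replicate 1 highest in both. Atg10, the E2-like enzyme for ATG12, was at 1.79, 1.41 and 1.51 TPM, the lowest level of the group.

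Atg12, Atg5 and Atg16l1 encode the complex that directs ATG8 proteins to the membrane. Atg5 was at 7.03, 5.15 and 5.14 TPM. Atg12 was at 6.29, 4.84 and 5.36 TPM. Their log2 ratio, Atg12 over Atg5, was -0.06 ± 0.11 (SD, n = 3), with 2 of 3 libraries on the same side, so a difference was not detectable beyond the spread. Atg16l1, the scaffold of the complex, was at 2.95, 2.12 and 2.94 TPM, with replicate 2 lowest. Atg5 over Atg16l1 was 1.08 ± 0.26 (SD, n = 3) on the log2 scale, or 2.12-fold. Within the bounds of Atg16l1 lie the small Cajal body RNA genes Gm25395 at 31.1 TPM and Scarna6 at 13.8 TPM, which share no exonic base with its highest transcript.

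The 4 ATG4 proteases process ATG8 precursors and release lipid-bound ATG8 proteins. Atg4b, the family member known for the broadest activity on ATG8 proteins, was at 4.21, 3.21 and 4.24 TPM. Atg4c was at 3.40, 2.61 and 2.85 TPM. In both genes replicate 2 was the lowest library. Atg4a was at 2.78, 2.70 and 3.08 TPM. An aligned stretch of 2115 bases of its highest transcript is 99.3% identical to Atg4a-ps, which had 0.023 TPM. Atg4d was at 2.40, 2.77 and 2.69 TPM. The ranges of Atg4a, Atg4c and Atg4d overlapped. Atg4b exceeded each of the others in 3 of 3 libraries, by a log2 ratio of 0.42 ± 0.17 (SD, n = 3) over Atg4a, 0.38 ± 0.15 over Atg4c and 0.54 ± 0.30 over Atg4d. Counted in protein-coding transcripts only, the first 2 ratios fell to 0.10 and 0.066 and the last rose to 2.72.

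In the initiation complex Rb1cc1, which encodes the scaffold FIP200, was highest at 11.2, 8.64 and 8.91 TPM. Its level depended on the quantification: rescaled to the protein-coding sum it was 43.0 in the gene tables and 85 in the second quantification, highest of the complex in both. Ulk2 was at 7.12, 5.68 and 5.81 TPM. Ulk1, the kinase most often placed at the start of autophagy, was at 3.50, 3.53 and 2.73 TPM. Replicate 1 was highest for Rb1cc1 and Ulk2, whereas replicates 1 and 2 were level for Ulk1. Ulk1 lay below Ulk2 in 3 of 3 libraries, with a log2 ratio of -0.91 ± 0.21 (SD, n = 3), so that Ulk2 was 1.88-fold higher. Atg13, the adaptor that joins the kinase to FIP200, was at 5.59, 4.28 and 4.49 TPM. Atg101, its stabilising partner, was at 1.99, 2.18 and 2.49 TPM. Replicate 1 was highest for Atg13 and lowest for Atg101, which was the lowest gene of this complex.

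In gene-level TPM Becn1 led the lipid kinase complexes at 29.8, 24.8 and 26.8 TPM (27.2 ± 2.51, SD, n = 3). It encodes beclin 1, the scaffold shared by the autophagic and endosomal complexes. In protein-coding transcripts only, this lead was lost: Becn1 had 2.95 TPM, below Uvrag with 7.48 and Ambra1 with 4.13. These coding levels depend on how reads are divided between transcripts. The coding share was 96.3% for Uvrag and 11.0% for Becn1, but 29.6% and 5.15% in the second quantification. Uvrag, which replaces ATG14 in the endosomal complex, was at 9.35, 7.15 and 6.85 TPM. Atg14, which brings the kinase to the sites of autophagosome formation, was at 1.70, 1.5 and 1.36 TPM. Uvrag and Atg14 did not overlap: the log2 ratio of Atg14 over Uvrag was -2.27 ± 0.11 (SD, n = 3), so Uvrag was 4.84-fold higher. Pik3r4, the regulatory subunit VPS15, was at 4.73, 4.02 and 4.31 TPM. Pik3c3, the catalytic subunit VPS34, was at 3.02, 2.38 and 2.20 TPM. Ambra1, a regulator that binds beclin 1, was at 4.77, 3.58 and 4.25 TPM. In each of these genes replicate 1 was the highest library.

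The membrane and lipid group was low throughout. Atg9a, a lipid scramblase carried on vesicles, was at 5.60, 4.71 and 4.23 TPM. Gm29253, on the same strand at 0.097 TPM, shares 1826 exonic bases with Atg9a-201. Atg2a, which encodes a lipid transfer protein, was at 3.00, 2.72 and 2.60 TPM, and its paralog Atg2b at 2.98, 2.18 and 2.09 TPM. These 2 were level in replicate 1 and separated in the other libraries, with a mean log2 ratio of 0.21 ± 0.17 (SD, n = 3). Gskip, on the opposite strand at 3.35 TPM, shares 383 exonic bases with Atg2b-201, so reads there cannot be told apart without the strand setting. Wipi1 was at 1.83, 1.75 and 1.65 TPM. Wipi2, which recruits ATG16L1, was at 2.81, 2.58 and 2.71 TPM. Wdr45, the paralog also called WIPI4, was at 3.54, 2.76 and 2.97 TPM. All 3 encode proteins that bind phosphatidylinositol 3-phosphate. Gm45208, on the same strand as Wdr45 and at 0 TPM, shares 818 exonic bases with Wdr45-201. Wipi1 lay below Wipi2 by a log2 ratio of -0.60 ± 0.07 (SD, n = 3). Wipi2 over Wdr45 was -0.18 ± 0.12 in the gene tables and 0.15 in the second quantification, so the order of these 2 genes depended on the quantification.

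Total RNA libraries also hold transcripts that do not encode protein, and each gene's TPM was divided by the annotated class of its transcripts. The median member had 96.5% of its TPM in protein-coding transcripts, against 97.2% for all detected protein-coding genes, and 25 of 36 members had 90% or more, which 71.7% of those genes had. Under 50% was found in 2 of 36 members, Becn1 and Atg4d, where the background was 4.46%. These genes were singled out after their values were seen. The highest transcript was the same in both quantifications for 32 of 36 members. The share over all detected protein-coding genes was not computed, so this count cannot be read as particular to the members.

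**Figure D3:**
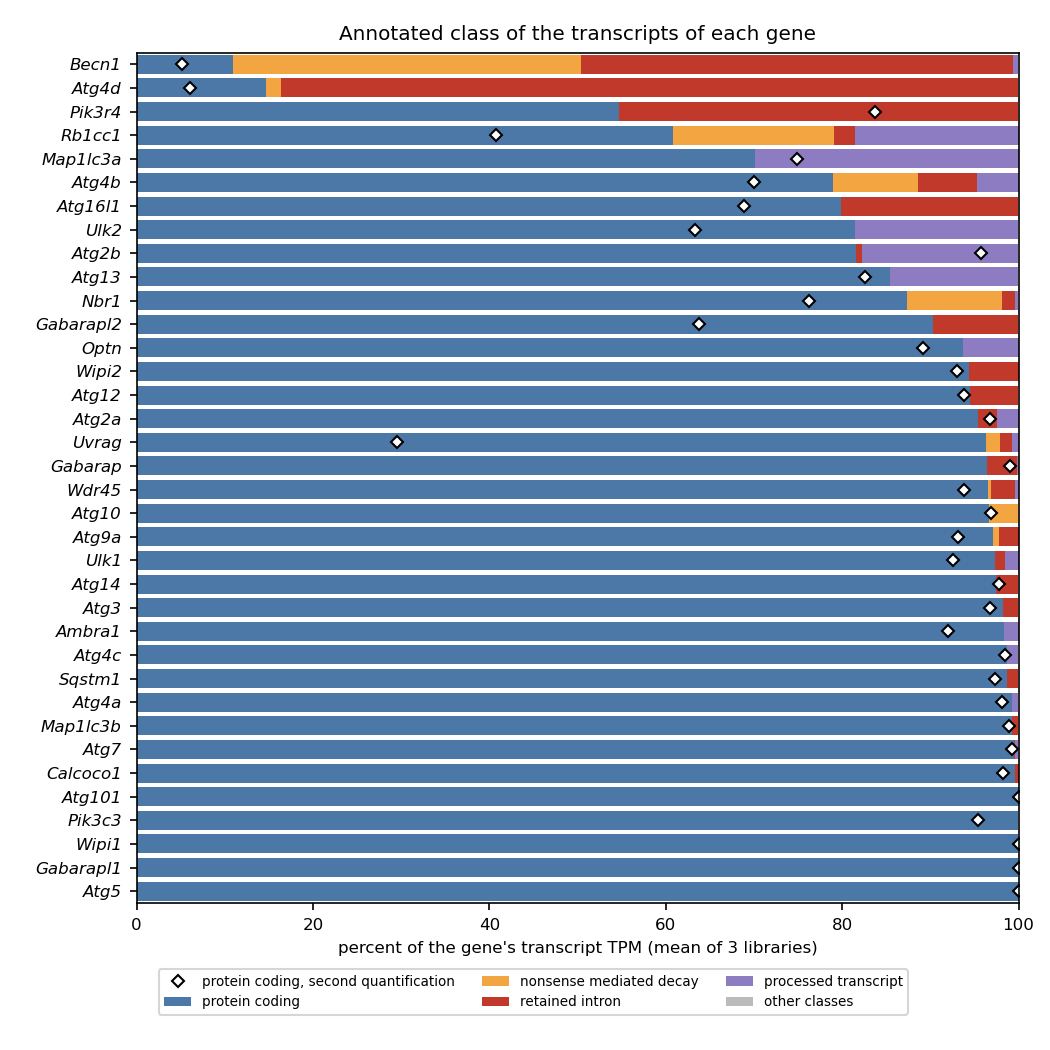
Share of each gene's transcript TPM by annotated transcript class, as the mean of 3 libraries, ordered by the protein-coding share; open diamonds give the protein-coding share in the second quantification. Becn1 and Atg4d have the shortest protein-coding bars, and Uvrag has the widest gap between bar and diamond.

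In Becn1 the protein-coding share of TPM was 9.08%, 12.5% and 11.3% in replicates 1, 2 and 3 (11.0% ± 1.74, SD, n = 3) and 5.15% in the second quantification. By expected counts, which are not divided by length, the share was 33.0% ± 6.67. The highest transcript was Becn1-211, a retained-intron transcript of 487 bases with 42.8% of TPM and 8.77% of counts. Of its bases 482 lie in exons of coding transcripts of the gene. Becn1-201, annotated for nonsense-mediated decay, held 27.8% of TPM and 40.9% of counts. It shares its last exon start with the coding transcript Becn1-205, but that exon is 720 bases long against 3030. Of the 2123 bases of Becn1-201, 2119 lie in exons of coding transcripts of the gene. Most bases of Becn1-211 and Becn1-201 are therefore shared with coding transcripts, and how reads there are divided is a model estimate. Becn1-205, at 4365 bases, also has last-exon bases that Becn1-201 lacks.

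The bases that set these transcripts apart from Becn1-205 are given in capitals with their flanks in lower case, read from mm10 on the minus strand. They lie at chr11:101295432-101295436 for Becn1-211 and chr11:101296194-101296257 for Becn1-201, where an exon of Becn1-205 is extended by 64 bases. These 64 bases also lie in exons of another coding transcript of Becn1, so they do not mark Becn1-201 alone.
Becn1-211: TCCAGgtcactggagacctgtttga
Becn1-201: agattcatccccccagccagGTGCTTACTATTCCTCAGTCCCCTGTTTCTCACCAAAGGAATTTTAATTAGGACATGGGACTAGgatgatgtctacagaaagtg

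Becn1-201 also has a stretch of 4 bases at chr11:101294966-101294969 that Becn1-205 lacks, and these lie in no exon of a coding Becn1 transcript. The single stretch in Becn1-211 is 5 bases at its 5′ end. Cntd1, on the opposite strand, overlaps 10366 bases of Becn1 and was at 0.013 TPM.

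In Atg4d the protein-coding share was 13.8%, 10.8% and 19.4% of TPM in replicates 1, 2 and 3 (14.7% ± 4.36, SD, n = 3), with replicate 3 highest, and 6.05% in the second quantification. By counts it was 39.8% ± 7.49. Atg4d-203, a retained-intron transcript of 2123 bases, held 57.4% ± 0.655 of TPM and 52.6% of counts, and 59.1% of TPM in the second quantification. It keeps the 77-base intron at chr9:21268528-21268604 of the plus strand, in capitals here between its exon flanks, and has a further exon of 125 bases. Atg4d-205, another retained-intron transcript, held 20.9% ± 5.82 (SD, n = 3) of TPM.
Atg4d-203: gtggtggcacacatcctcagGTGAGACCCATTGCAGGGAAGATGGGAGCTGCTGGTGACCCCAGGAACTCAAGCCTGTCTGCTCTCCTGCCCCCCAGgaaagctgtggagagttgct

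The coding transcript Atg4d-201 has a last exon of 4519 bases, against 492 in Atg4d-203, and 4316 of them lie within Kri1, a gene on the opposite strand at 4.5 TPM. Atg4d-201 shares 1405 exonic bases with Kri1. Because the strand setting of the counting is not given in the sources used here, reads of Atg4d-201 and Kri1 in these shared bases cannot be told apart.

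**Figure D4:**
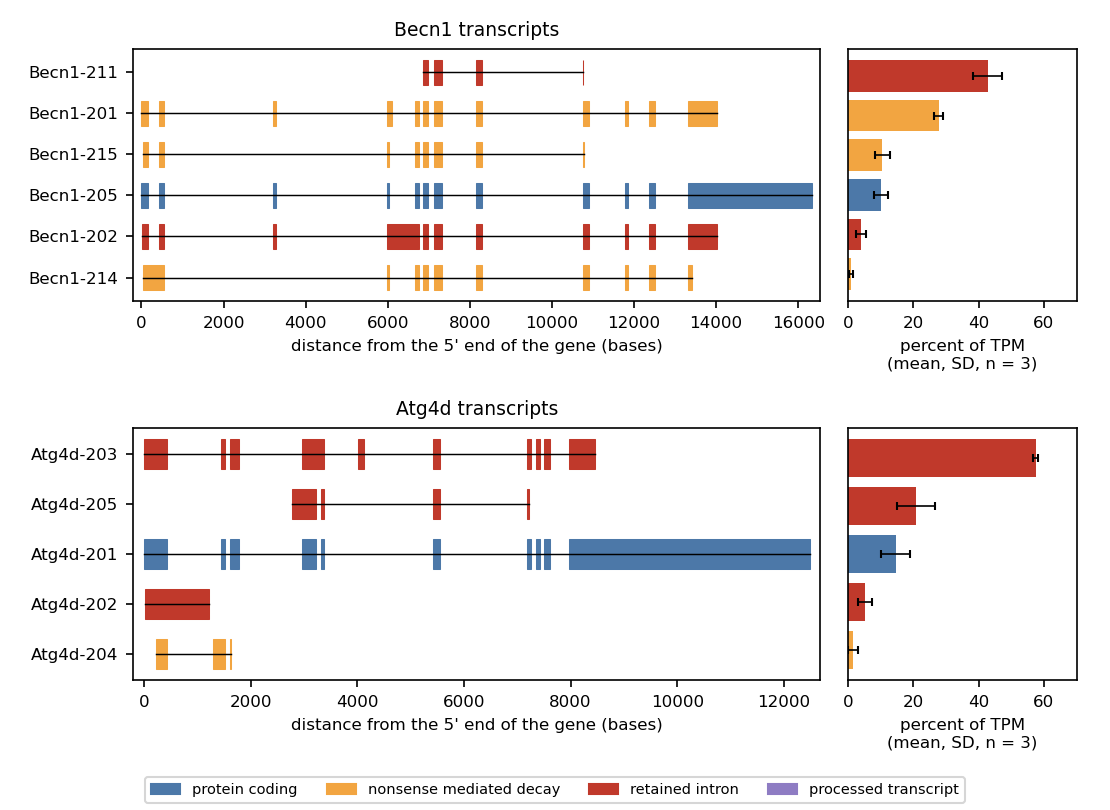
Exons (boxes) of the Becn1 and Atg4d transcripts with at least 1% of the gene's TPM, by distance from the 5′ end of the gene in bases, coloured by annotated class; bars give the mean share of TPM with SD over 3 libraries. The coding transcripts Becn1-205 and Atg4d-201 carry the longest last exons, and transcripts of other classes hold the larger shares.

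Class shares of other members also moved between quantifications, and those named here were chosen after their values were seen. Uvrag-201, a coding transcript, held 96.3% of Uvrag TPM, but 29.6% in the second quantification, where the decay-annotated Uvrag-208 had 35.7%. Uvrag also shares stretches of at least 200 bases at 95% identity with several detected genes, among them Mettl6 at 7.58 TPM and Txndc16 at 7.27 TPM. Pik3r4-211, a retained-intron transcript, held 31.2% of Pik3r4 TPM, but 3.97% in the second quantification. Rb1cc1-202, a processed transcript of 519 bases, held 18.5% of Rb1cc1 TPM and 41.3% in the second quantification. The coding share of Gabarapl2 was 90.3% ± 3.07 (SD, n = 3) in the gene tables' quantification and 63.8% ± 3.24 in the second, and that of Ulk2 81.5% ± 4.74 and 63.3% ± 4.96. In Map1lc3a the difference was within the spread: the processed transcript Map1lc3a-203 held 29.6% ± 12.5 of TPM and 22.4% ± 12.9 in the second quantification. The highest transcript of each of these genes in the gene tables was protein-coding, with 44.6% of Pik3r4 TPM in Pik3r4-201, 32.9% of Rb1cc1 in Rb1cc1-201 and 70.1% of Map1lc3a in Map1lc3a-201.

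Among members with more than 1 coding transcript of 20% or more, Gabarap divided between Gabarap-201 with 62.1% ± 2.42 (SD, n = 3) and Gabarap-202 with 34.3% ± 2.30. In the second quantification these were 84.5% and 14.6%, so the division depended on the quantification. Wipi1 divided between Wipi1-202 with 68.4% and Wipi1-201 with 31.2%. Atg9a divided almost evenly, with 48.1% in Atg9a-201 and 44.1% in Atg9a-205. In the second quantification their order was reversed, at 38.4% and 49.0%. Nbr1-206 held 43.9% and Nbr1-217 29.7% of Nbr1, and the latter 10.7% in the second quantification. Ambra1-203 held 45.1% and Ambra1-202 29.4% of Ambra1, and Atg2b-201 held 47.9% and Atg2b-203 33.6% of Atg2b. Atg16l1-202 held 45.9% ± 15.4 (SD, n = 3) and Atg16l1-201 34.1% ± 3.18 of Atg16l1. The gap between them lay mainly in replicate 2, at 63.7% against 30.7%. They were near even in replicate 1, at 36.6% against 34.6%, and in replicate 3, at 37.3% against 36.9%. Sqstm1, by contrast, lay mostly in 1 transcript, Sqstm1-202, with 91.4% ± 2.27.

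In the other members a single coding transcript led in the gene tables' quantification. The share was highest for Atg5-201 at 100%, Gabarapl1-201 and Atg101-201 at 99.7%, Atg4a-201 at 99.2%, Atg3-201 at 98.3%, Pik3c3-203 at 97.2% and Atg10-201 at 96.6%. It was 95.3% for Calcoco1-201, 95% for Ulk1-201, 94.5% for Atg12-201, 92.8% for both Atg14-201 and Atg4c-201, 91.6% for Map1lc3b-201, 91.4% for Wipi2-201 and 90.3% for Gabarapl2-201. The leading transcript was less dominant for Optn-202 at 88.1%, Atg13-202 at 85.4%, Ulk2-201 at 81.5%, Atg2a-201 at 77.1%, Atg7-201 at 66.0%, Wdr45-201 at 64.6% and Atg4b-201 at 60.8%. The second quantification gave lower shares for several of them: Atg4b-201 had 32.9%, below Atg4b-203 with 34.8%, Atg7-201 had 39.6%, Map1lc3b-201 55.2% and Wipi2-201 60.5%.

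In all 36 members the highest library was under 1.5 times the lowest, which 89.4% of detected protein-coding genes had. The median ratio was 1.25, against 1.21 over those genes. Replicate 1 was the highest library for 27 of 36 members in TPM, and for 63.3% of detected protein-coding genes. After rescaling to the protein-coding sum it was highest for 20 of 36 members and 41.2% of the genes, and the median ratio was 1.17 for both. With TMM scaling of the counts replicate 2 was highest for 17 of 36 members and replicate 1 for 14, and for 41.8% and 33.0% of the genes. Which library was highest thus moved with the scaling.

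Counts per library were tested for variation beyond counting error with a chi-square test of dispersion on TMM-scaled expected counts, adjusted over all 14038 genes tested (Benjamini-Hochberg). The test called 22 of 36 members, where it called 62.1% of all genes and 61.9% of the 11804 protein-coding genes, so the share of members called lay near the background. Among protein-coding genes within the members' range of mean counts it called 73.5%. The biological coefficient of variation as edgeR estimates it, which draws each gene toward a trend over all genes, ran from 0.0879 for Becn1 to 0.196 for Atg101, with a median of 0.107. The median was 0.131 for the protein-coding genes tested and 0.114 for those within the members' range of mean counts.

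Sqstm1 had the widest ratio of any member on this scale, with 1252 CPM, counts scaled to a common library total, in replicate 1, 1823 in replicate 2 and 1682 in replicate 3. Replicate 1 was its lowest library in TPM, after rescaling to the protein-coding sum and with TMM scaling. Ulk1 followed, at 30.2, 34.8 and 24.9 CPM in replicates 1, 2 and 3, with an adjusted p of 1.17e-26 in the dispersion test over all genes. Atg4d came next, at 8.64, 10.8 and 11.9 CPM, with an adjusted p of 8.4e-05 in the same test. Becn1 was the most level member, at 67.0, 65.4 and 67.2 CPM (adjusted p = 0.362 in the dispersion test over all genes). Ulk1 was thus lowest in replicate 3 and Atg4d in replicate 1, so the members did not share 1 order of libraries.

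**Figure D5:**
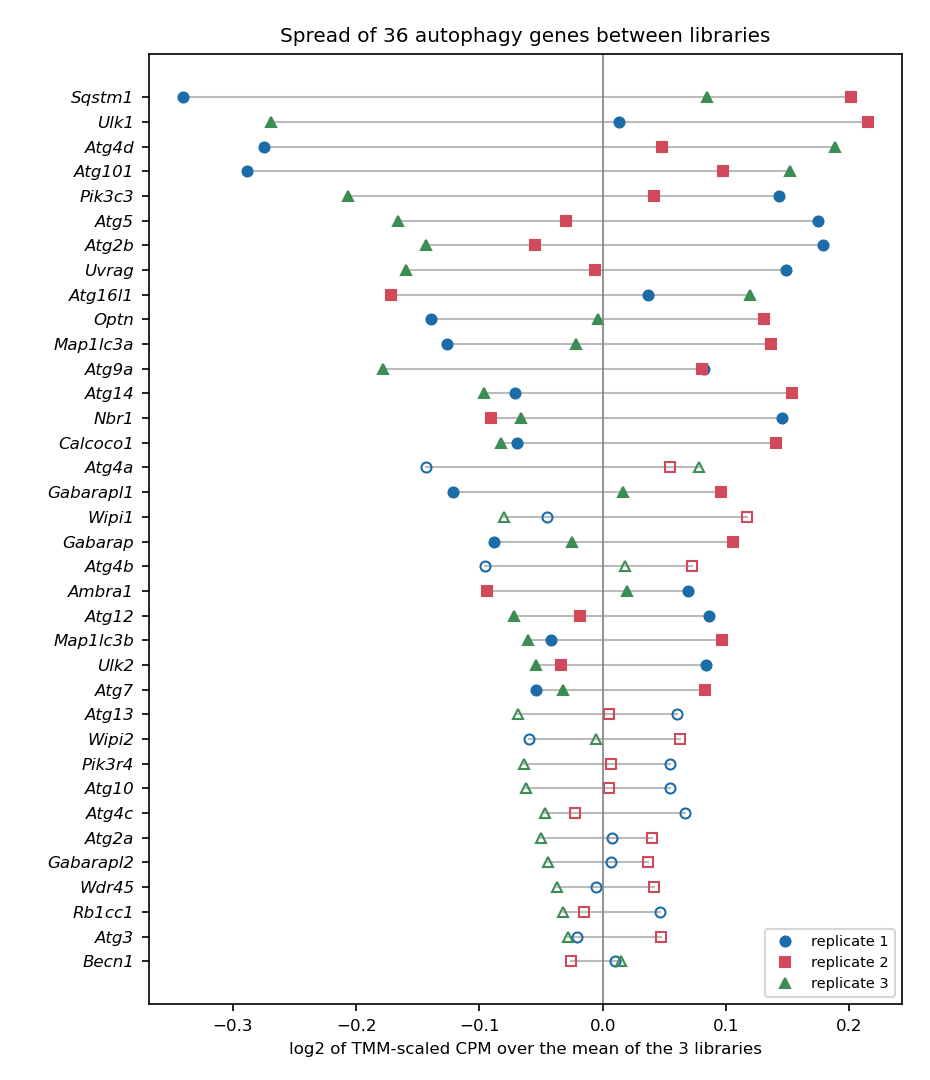
log2 of the TMM-scaled CPM in each library over the mean of the 3 libraries, for each of the 36 genes, ordered by the ratio of highest to lowest library; filled symbols mark the 22 genes called by the dispersion test and open symbols the other 14. Sqstm1 at the top has replicate 1 far below the other libraries, and Becn1 at the bottom has all 3 close to 0.

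Genes around the core machinery were described from 4 lists of 56 genes. Of these 51 were detected, where 37.6% of the 22015 nuclear-encoded protein-coding genes were. Their levels are means over the 3 libraries unless libraries are named. Of 12 other receptors and adaptors 10 were detected, led by Ncoa4, the ferritin receptor, at 73.0 TPM, Tax1bp1 at 46.6, Tollip at 26.2 and Tex264 at 22.0. Stbd1, a glycogen receptor, was at 0.327 TPM, and Calcoco2 had 0 counts in each library, where the limit that a count of 0 allows is 0.0963, 0.0263 and 0.0503 CPM in replicates 1, 2 and 3. Such limits cover counting error only. Of 18 upstream regulators 16 were detected, led by Nfe2l2, which encodes NRF2, at 80.8 TPM, Trim30a at 48.5, Tfe3 at 19.8 and Mitf at 18.3. Nfe2l2 was at 103, 71.1 and 68.3 TPM in replicates 1, 2 and 3. Mlst8 at 0.520 TPM and Prkaa2 at 0.040 TPM were lowest.

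Of 10 other genes of autophagosome formation and closure 9 were detected, with Sh3glb1 at 81.5 TPM, Chmp2a at 44.2, Vmp1 at 23.3 and Tmem41b at 10.9. Atg16l2, the paralog of Atg16l1, was at 1.73 TPM and Rubcnl at 0.800. Libraries differed for Vmp1, at 29.6, 16.1 and 24.2 TPM in replicates 1, 2 and 3, and for Atg16l2, at 2.14, 1.01 and 2.05. All 16 genes of fusion with lysosomes were detected, with the lysosomal membrane proteins Lamp1 at 539 TPM and Lamp2 at 121, the small GTPase Rab7 at 136 and the SNARE Vamp8 at 48.9. The tethering factor Epg5 at 1.45 TPM and the autophagosomal SNARE Stx17 at 2.10 were the lowest of that list. Among the 36 members and the 56 listed genes, Lamp1 and Sqstm1 had the highest levels.

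Promoters of 30 of the 36 members were found in the RefSeq table, as 33 windows from 250 bases before to 50 after a start. The E-box CACGTG, searched on both strands, was in 4 of these 33 windows, those of Atg14, Atg3, Atg5 and Atg7, against 7.15% of all 32851 windows. Its extension TCACGTGA, which overlaps it, was in 1, that of Atg3, against 0.974%. The core TGACNNNGC of the antioxidant response element was in 3, those of Atg13, Map1lc3b and Ulk2, against 12.4%. The Sqstm1 and Gabarap windows held none of these 3 motifs.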

How the data were processed

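Per library, the authors deposited a gene and a transcript table in RSEM layout and a transcript table in kallisto layout, made against mm10 and GENCODE M21 per the labels and the text listing (aligner, tool versions and strand setting: not given in the sources used here). Deposited expected counts are model estimates per feature, rounded here for count tests. TPM, per the file headers, was scaled by the authors for effective length and sums to the same total in every table. The kallisto-layout TPM summed per gene is the second quantification. The bounds of the authors' TPM credibility interval, a signal per the file headers, were read and enter no result.

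TPM was used for levels and, with a pseudocount of 0.1, for log2 ratios within libraries. Genes with at least 10 counts on average entered the dispersion test (chi-square, TMM factors from edgeR 4.0.16, R 4.3.3; scipy 1.17.1), tested on simulated data. DESeq2 1.42.0 size factors, library totals, other thresholds, scalings and left-out replicates were alternatives. All 36 members were named, with the 4 highest and 2 lowest genes of each list, both genes of each pair, and transcripts of at least 20%. The members and lists were chosen with earlier results of these data known.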

Additional observations from a re-analysis of the deposited data

How the results depend on the processing

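Of 137 alternative values 105 kept the direction and stayed within a tolerance of 1.5 times for counts of genes or 1 SD for other values. Another 31 moved beyond it and 1 reversed, Wipi2 over Wdr45, at 0.15 in the second quantification. Of the 137, 69 left out 1 replicate. Leaving out 1 of 3 libraries cannot shift a mean over libraries by 1 SD. For the log2 ratios and the Becn1 and Atg4d shares, staying within the tolerance was therefore fixed in advance in these settings. The count of 36 detected members could not fall with a minimum of 0.5 TPM or with 1 replicate left out. Rescaling the gene-table TPM to the protein-coding sum raises every value, so that count could not fall there either. Every member passed the filter on low values and a minimum mean of 1 TPM, so medians under these settings could not change. The 105 values include these fixed outcomes. Rescaling to the protein-coding sum changes the unit of the median level, and a minimum of 5 TPM is a stricter threshold. For the other values that moved or reversed the cause was not tested. With a minimum of 5 TPM, 16 members and 20.9% of protein-coding genes were detected. In the second quantification these were 25 and 27.6%, and 36 and 46.9% after rescaling it to the protein-coding sum, an alternative chosen after seeing the data. The median member level was 1.97 TPM in the second quantification, 21.6 after rescaling to the protein-coding sum, and 22.6 with both. Nuclear-encoded protein-coding genes held 8.66% ± 1.95 (SD, n = 3) of all TPM in the second quantification, against 22.2% in the gene tables. The median ratio of highest to lowest library was 1.56 in the second quantification and 1.18 in its rescaled form. With 1 replicate left out it was 1.07 to 1.18, lowest without replicate 1. A gene's ratio cannot rise when a library is left out, so no increase was possible there. In the second quantification the log2 ratio was 2.33 for Map1lc3b over Map1lc3a, 2.39 for Gabarap over Gabarapl1, 3.28 for Gabarap over Gabarapl2, 2.43 for Gabarap over Map1lc3b, 0.41 for Atg2a over Atg2b, -0.78 for Wipi1 over Wipi2, 1.05, 0.56 and 0.87 for Atg4b over Atg4a, Atg4c and Atg4d, -2.81 for Atg14 over Uvrag and 4.64 for Sqstm1 over Optn, and the median coding share was 93.8%. With protein-coding transcripts only it was 2.40 for Map1lc3b over Map1lc3a, 2.66 for Gabarap over Gabarapl1, -0.66 for Ulk1 over Ulk2, 0.42 for Atg2a over Atg2b, -0.53 for Wipi1 over Wipi2, 0.10, 0.066 and 2.72 for Atg4b over Atg4a, Atg4c and Atg4d, and 1.40 for Atg5 over Atg16l1. A pseudocount of 1 gave -0.43 for Wipi1 over Wipi2 and -1.79 for Atg14 over Uvrag. The count of 22 members varying beyond counting error was 16, 15 and 21 without replicates 1, 2 and 3, where 45.3%, 37.9% and 49.5% of all genes were called. It was 22 with DESeq2 size factors (62.4% of all genes), 23 with library totals (61.8%) and 22 with no filter on low counts (42.2%). The coding shares of Becn1 and Atg4d, whose alternatives were chosen after seeing the data, were 5.15% and 6.05% in the second quantification and ran from 10.2% to 11.9% and from 12.3% to 16.6% with 1 replicate left out. No paired analysis was possible because all libraries belong to 1 group. The shallowest library limits the precision of the members near 1 TPM.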
